A study of Mus musculus with 3 samples.

Results

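The nuclear-encoded genes of oxidative phosphorylation were followed across the cells of naive and transplanted mouse lungs. The members were all gene features whose symbol begins with Nduf, Sdha to Sdhd, Uqcr, Cox4 to Cox8 or Atp5, apart from symbols ending in -ps, so they were chosen by name and not by any measured value. The rule found 97 members among 32285 gene features. They comprised 38 genes of complex I, 4 of complex II, 8 of complex III, 18 of complex IV, 17 of complex V and 12 assembly factors whose symbols fall under the same prefixes. Cox7b2 and Cox8c had no UMI in any retained cell, and the other 95 members were detected. The 13 protein-coding genes of the mitochondrial genome were read beside them.

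Oxidative phosphorylation takes place in the inner mitochondrial membrane. Complexes I to IV pass electrons to oxygen and, apart from complex II, pump protons, and complex V uses the proton gradient to make ATP. Most subunits are made from nuclear genes and imported, whereas a small core of complexes I, III, IV and V is encoded in mitochondrial DNA, so that both genomes have to be expressed to build a complex. Neutrophils are known for relying largely on glycolysis and for having few mitochondria, while lymphocytes and macrophages alter respiration as they become activated.

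Single-cell RNA-Seq was performed on 1 library per condition, each made from cells pooled from 2 mice aged 8 to 10 weeks on the C57BL/6J background. The study used male and female mice, and the sex of those in each library is not stated. The naive library came from the left lung of B6 mice without surgery. The other 2 libraries came from B6 CD45.2 left lungs transplanted into B6 CD45.1 recipients after 60 min of cold and 45 min of warm ischemia and reperfused for 2 h or 3 d. Cells were stained for CD45.1 and CD45.2 and sorted, the transplant libraries being described in the methods as recipient CD45.1 cells, which naive mice do not have, so that transplantation, the origin of the cells and the sort cannot be told apart in any comparison with the naive library. With 1 library per condition there was no replicate check, and no p-value was computed. Each interval below is an exact 95% interval of counting error only.

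After the cell filters 2422 naive, 10283 2-h and 8324 3-d cells remained, with median UMI counts of 7298.5, 878 and 5716.5 per cell. The libraries shared 8 (naive and 2 h), 1 (naive and 3 d) and 23 (2 h and 3 d) cell barcodes. They also differed in the kind of gene they captured. Genes with more than 100 kb of introns held 15.8% of UMIs in the naive library, 4.72% at 2 h and 5.23% at 3 d, and the naive file was made with another version of Cell Ranger. Many members are compact genes, with 46 of 97 (47.4%) having under 5 kb of introns against 20.3% of all genes tested, so the medians of members between libraries are given beside those of other genes of like structure. Cells were grouped by clustering and called B-like, T-like, NK-like, neutrophil-like, monocyte-macrophage-like and so on from marker lists, and levels are summed UMIs of a group as counts per 1000000 of all its UMIs (CPM). A CPM value is not divided by transcript length, so it was compared for 1 gene between cells and not between genes.

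The promoters of 3 members are shown for the binding motif of NRF-1, a transcription factor known to act on many respiratory genes. Uqcrc1 holds the longest match, and Atp5g2 and Ndufa11 hold its core and recur in the results below. RefSeq promoters on GRCm38.p6, from 250 bases before to 50 bases after the gene start, were available for 79 of the 97 members. The capitals mark the motif, which is the 10-letter core in Atp5g2 and Ndufa11 and the full 12-letter form in Uqcrc1. Both were searched on both strands, and the core lies inside the longer form, which no other member held. Atp5g2, 1 of 3 genes for the membrane-embedded ring of complex V, lies on the minus strand at chr15:102670998-102671297 for the window shown. Ndufa11, an accessory subunit of complex I, is on the plus strand at chr17:56717512-56717811. Uqcrc1, a core protein of complex III, is on the plus strand at chr9:108936398-108936697.
Atp5g2: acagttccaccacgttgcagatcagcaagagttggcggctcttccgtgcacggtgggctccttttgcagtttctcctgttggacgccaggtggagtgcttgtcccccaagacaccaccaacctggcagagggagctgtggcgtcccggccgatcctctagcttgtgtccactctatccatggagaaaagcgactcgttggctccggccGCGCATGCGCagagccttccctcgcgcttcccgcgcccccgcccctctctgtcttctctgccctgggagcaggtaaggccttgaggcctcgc
Ndufa11: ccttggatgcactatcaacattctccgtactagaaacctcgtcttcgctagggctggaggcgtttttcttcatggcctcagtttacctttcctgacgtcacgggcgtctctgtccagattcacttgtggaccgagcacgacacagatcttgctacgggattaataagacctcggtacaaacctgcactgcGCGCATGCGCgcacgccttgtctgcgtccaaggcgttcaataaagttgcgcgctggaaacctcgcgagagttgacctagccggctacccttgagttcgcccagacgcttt
Uqcrc1: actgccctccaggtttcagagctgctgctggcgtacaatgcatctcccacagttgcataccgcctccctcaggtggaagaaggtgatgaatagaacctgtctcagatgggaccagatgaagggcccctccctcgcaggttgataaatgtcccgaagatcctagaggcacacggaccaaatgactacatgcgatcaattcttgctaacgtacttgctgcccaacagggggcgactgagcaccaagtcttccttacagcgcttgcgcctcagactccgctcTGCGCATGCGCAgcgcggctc
The 10-letter core was present in 7 of 79 member promoters (8.86%), against 1.07% of the promoters of all 27025 genes that had one. These were the promoters of Atp5g2, Atp5k, Cox6a1, Ndufa11, Ndufaf4, Ndufaf5 and Uqcrc1, which span complexes I, III, IV and V and 2 assembly factors. The ETS-family letters CCGGAAG, which GABP also binds, were present in 22 members (27.8%, against 9.93% of all genes). The YY1 letters AAGATGG were present in 11 members (13.9%, against 7.28%). These matches describe the letters of the windows, and no binding was measured.

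Neutrophil-like cells had the lowest level of the nuclear genes of the 5 cell groups compared in every library. Summed over the members, these genes held 0.636% of UMIs in naive neutrophil-like cells (95% interval 0.626 to 0.647), 0.743% at 2 h and 0.780% at 3 d. T-like cells held 1.18% in the naive library, 1.67% at 2 h and 1.25% at 3 d. The log2 difference of neutrophil-like from T-like cells was therefore -0.89, -1.16 and -0.68 in the 3 libraries. NK-like cells stood above T-like cells each time, at 1.47%, 2.08% and 1.61%, which are log2 differences of 0.31, 0.32 and 0.37. B-like cells were close to or below T-like cells, at 1.0%, 1.64% and 1.16%.

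Among the myeloid groups, monocyte-macrophage-like cells held 1.31% in the naive library, 1.85% at 2 h and 1.69% at 3 d. The clusters of this group were nearly all called classical monocyte-like in the naive and 2-h libraries but not at 3 d. The 6 nonclassical monocyte markers, all detected, summed to 1775, 1068 and 392 CPM in it, against 3382 CPM in the nonclassical monocyte-like cluster, and the 8 classical markers to 4877, 2815 and 8918 CPM, and the part of this difference in comparisons of its level between libraries was not tested. At 3 d its classical monocyte-like cluster held 1.95%. A macrophage-like cluster led by Saa3 and Arg1, the latter the gene of arginase, held 1.27%, and one led by the C1q complement genes 1.46%. Nonclassical monocyte-like cells of the 3-d library, kept apart, held 1.27%. Dendritic-like cells stood above the other groups, at 2.27% at 2 h and 1.85% at 3 d. At 3 d the classical monocyte-like cluster, taken alone, was above them. Basophil-like cells were low, as neutrophil-like cells were, at 0.766% at 2 h and 0.907% at 3 d. Alveolar macrophage-like cells of the naive lung held 1.28%, and endothelial-like cells, present although the cells were sorted on CD45, held 1.11% in the naive and 1.17% in the 3-d library. The endothelial-like cluster was mixed, its epithelial markers summing to 8330 CPM in the naive and 6569 CPM in the 3-d library and its endothelial markers to 5621 and 4984 CPM, with 3601 CPM of erythroid markers in the naive library.

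**Figure D1:**
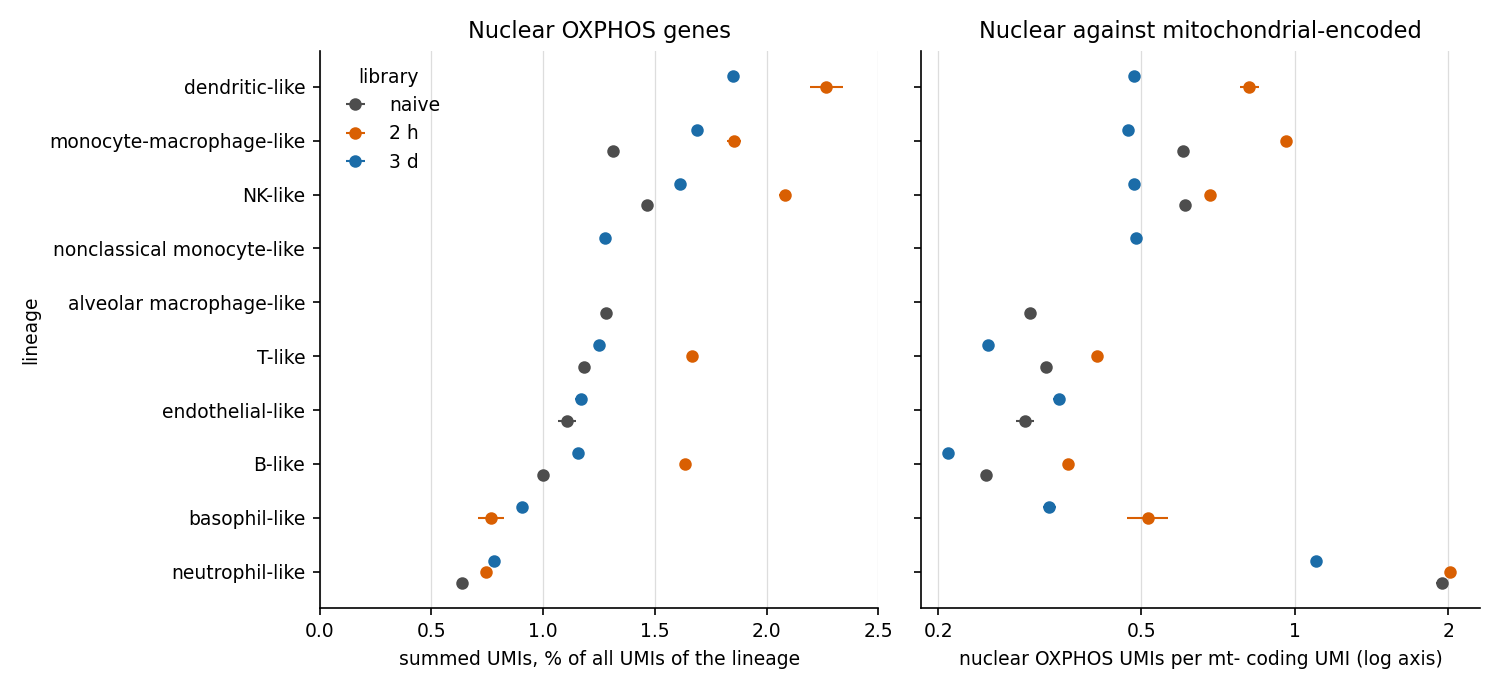
Left, UMIs of the nuclear oxidative phosphorylation genes as a percentage of all UMIs of each cell group. Right, the same UMIs per UMI of the 13 mitochondrial coding genes, on a log axis. Points are libraries (naive, 2 h and 3 d) and bars are 95% intervals of counting error. Neutrophil-like cells lie at 0.636 to 0.780% on the left and, at 1.10 to 2.01 per mitochondrial UMI, on the far right of the second panel.

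Read against the mitochondrial genome, neutrophil-like cells moved from the lowest to the highest place among the cell groups compared, while NK-, T- and B-like cells kept their order. The 13 mitochondrial coding genes held 0.327% of the UMIs of naive neutrophil-like cells and 4.03% of those of B-like cells. Neutrophil-like cells thus had 1.95 nuclear UMIs per mitochondrial UMI in the naive library, 2.01 at 2 h and 1.10 at 3 d. The ratio in B-like cells was 0.248, 0.359 and 0.209. In T-like cells it was 0.325, 0.410 and 0.251. NK-like cells (0.609, 0.681 and 0.483) and monocyte-macrophage-like cells (0.603, 0.962 and 0.471) lay between, without overlap with the neutrophil-like values. Cells with 10% or more mitochondrial UMIs had been removed beforehand, so these ratios describe cells under that limit.

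Part of the low share in neutrophil-like cells depends on what the members are divided by. Cytosolic ribosomal protein genes took 2.63 to 4.01% of neutrophil-like UMIs and 26.9 to 31.5% of T-like UMIs. With ribosomal protein, mitochondrial and immunoglobulin genes left out of the total, the members held 0.656%, 0.768% and 0.818% in neutrophil-like cells against 1.70%, 2.55% and 1.97% in T-like cells. Per ribosomal protein UMI the direction reversed, the neutrophil-like cells standing 1.97 log2 units above the lymphocyte-like median. As a reading of lymphocyte RNA in the other group, the 8 T-cell markers, all detected, summed to 41.4, 65.1 and 69.2 CPM in neutrophil-like cells against 4599, 3724 and 3306 CPM in T-like cells.

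The make-up of the summed level was similar across cells. Complex I supplied 24.5 to 33.1% of the nuclear UMIs, complex V 27.4 to 33.3%, complex IV 23.7 to 32.2% and complex III 7.90 to 10.9%. The catalytic complex II, which also belongs to the tricarboxylic acid cycle, supplied 1.21 to 3.21%. Within that range neutrophil-like cells had a smaller complex I share (25.8 to 26.8%) than the lymphocyte-like groups (28.2 to 31.04%), and a larger complex IV share (28.2 to 30.7% against 23.7 to 26.7%). Basophil-like cells went further in both, at 24.5 and 24.8% for complex I and 30.9 and 32.2% for complex IV at 2 h and 3 d. The complex I sum includes Ndufa4, grouped by its symbol although its protein is bound to complex IV.

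The members with the most UMIs were Atp5e, Cox8a, Cox4i1, Uqcrh, Atp5l, Cox7c, Atp5h, Cox6c, Atp5g2 and Ndufa4. Cox4i1 encodes the ubiquitous form of cytochrome c oxidase subunit 4. Its level was 453, 600 and 534 CPM in T-like cells of the naive, 2-h and 3-d libraries, and 263, 301 and 391 CPM in neutrophil-like cells. Cox8a, the small subunit 8 of the same enzyme, showed no such gap from T-like cells. It was at 404, 738 and 418 CPM in T-like and 484, 726 and 524 CPM in neutrophil-like cells. NK-like cells were above both, at 707, 1204 and 719 CPM. Uqcrh, the hinge protein of complex III, was at 524, 832 and 558 CPM in T-like cells and 148, 196 and 272 CPM in neutrophil-like cells, lower in all 3 libraries. Cox7c, another small subunit of complex IV, was at 370, 625 and 377 CPM against 132, 233 and 175 CPM.

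Members were therefore compared 1 by 1 between neutrophil-like cells and the median of B-, T- and NK-like cells of the same library. Of the 97 members, 85 reached the minimum level for this comparison. That minimum was a mean of at least 10 CPM over both sides and the 3 libraries, so a gene could pass on the level of either side alone. The median log2 difference of the members was -1.31 in the naive library, -1.60 at 2 h and -0.93 at 3 d, against -0.95, -0.78 and -0.75 over all 7202 genes tested. Of the 85, 74 were lower in neutrophil-like cells in all 3 libraries, 3 were higher in all 3, and 8 differed in direction between libraries. At least a 2-fold deficit in all 3 libraries was found for 39 members (45.9%, where 36.8% of all genes passed). A deficit of at least 4-fold was found for 16 members (18.8%), which is near the 17.8% of all genes, and none was at least 4-fold higher in all 3 (8.08% of all genes). Being higher in all 3 libraries was the rarer direction, at 3 of 85 members (3.53%) against 25.2% of all genes.

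**Figure D2:**
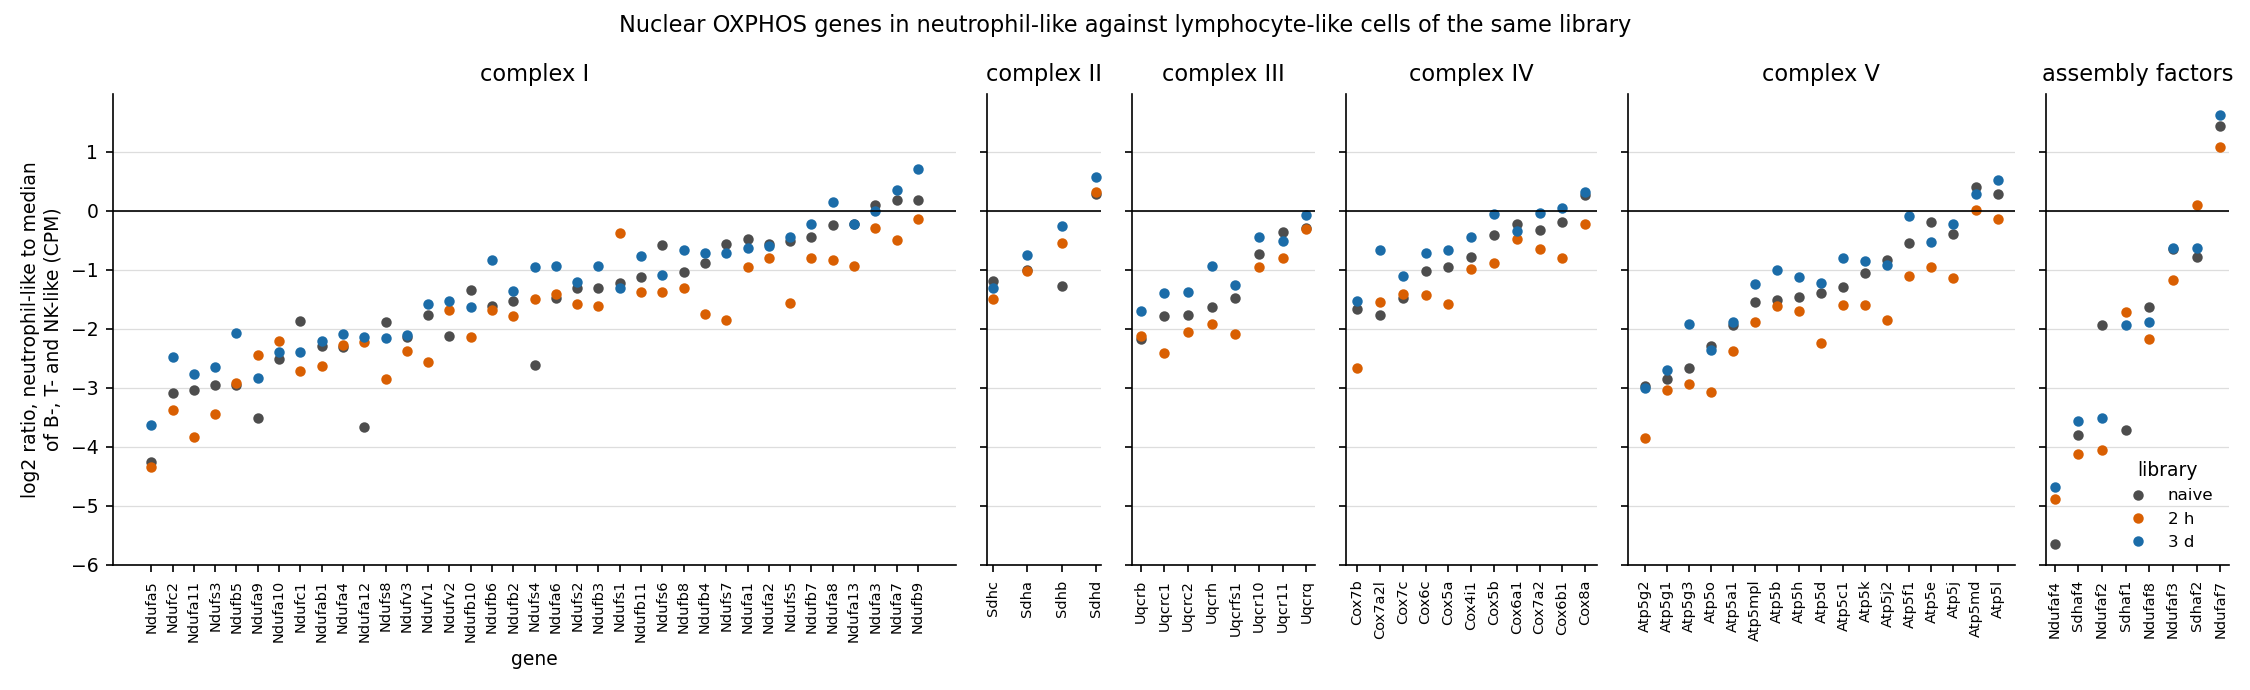
Log2 ratio of CPM in neutrophil-like cells to the median of B-, T- and NK-like cells of the same library, for the 85 members tested, ordered within each complex. Colours are libraries and the line at 0 marks equal levels. Most points lie below 0, with Ndufaf4 and Ndufa5 lowest, while Ndufaf7, Sdhd and Atp5md lie above it in all 3 libraries.

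At least 2-fold lower in all 3 libraries were 18 of the 37 tested genes of complex I. So were 4 of 8 of complex III and 9 of 17 of complex V. These are 48.6%, 50% and 52.9%, against 36.8% of all genes. Complexes IV (2 of 11, 18.2%) and II (1 of 4, 25%) were below that share, and assembly factors (5 of 8, 62.5%) were above it. The 4-fold limit, which 17.8% of all genes passed, was passed less evenly. The members described in this paragraph were picked after their values were seen. Of the 16 members at least 4-fold lower in each library, 11 were among the 37 tested genes of complex I, 3 among the 17 of complex V and 2 among the 8 assembly factors, whereas none of the 4, 8 and 11 genes tested for complexes II, III and IV were. The median log2 differences of complex III, at -1.56, -1.98 and -1.10, were nevertheless near those of complex I, at -1.47, -1.69 and -1.20. The 11 include Ndufa4, which was grouped by its symbol although its protein is bound to complex IV, with differences of -2.32, -2.28 and -2.10. Ndufa5, an accessory subunit of complex I, was at 3.56, 8.04 and 5.82 CPM in neutrophil-like cells of the naive, 2-h and 3-d libraries, against lymphocyte-like medians of 68.6, 164 and 72.3 CPM. These are log2 differences of -4.27, -4.35 and -3.64. Ndufs3, a core iron-sulfur subunit, was at 7.57, 8.30 and 7.20 CPM against 58.6, 90.5 and 45.2 CPM. Ndufa11, shown above, was at 9.35, 11.9 and 12.4 CPM against 77.3, 170 and 84.3 CPM. All 3 genes of complex I were thus far below the lymphocyte-like level at each time. Ndufaf4, an assembly factor of complex I, was nearly absent, at 0.445, 0.778 and 1.2 CPM against 22.3, 23.1 and 30.96 CPM. The naive neutrophil-like value is under the level of 3 UMIs (1.34 CPM) and the 2-h value is at that level, so the size of these differences is uncertain. Ndufa5, Ndufa9, Ndufs3, Ndufaf4 and Sdhaf4, all among the 16, were under 10 CPM in neutrophil-like cells of each library. They passed the minimum only through their lymphocyte-like level.

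The genes for the membrane ring of complex V, Atp5g1, Atp5g2 and Atp5g3, encode the same mature protein behind different import sequences, and all 3 were low in neutrophil-like cells. Atp5g2 was at 35.6, 43.3 and 39.1 CPM against 279, 624 and 313 CPM. Atp5g1 was at 15.6, 30.6 and 21.2 CPM against 113, 252 and 137 CPM. Atp5g3 was at 19.1, 28.8 and 36.8 CPM against 122, 222 and 139 CPM, the last difference (-1.91) being just under the 4-fold limit. Atp5o, the subunit that links the catalytic head to the stalk, was the third gene of complex V at least 4-fold lower each time, with log2 differences of -2.30, -3.08 and -2.37. At least 2-fold lower in all 3 libraries were 9 of the 17 genes of the complex (52.9%, against 36.8% of all genes). Atp5l and Atp5md, in contrast, were not 2-fold lower in any library. Atp5l, subunit g of the ATP synthase, was at 382, 519 and 518 CPM against 312, 573 and 361 CPM. Atp5md, a small subunit associated with the dimer of complex V, was at 284, 371 and 200 CPM against 216, 366 and 165 CPM, which are log2 differences of 0.40, 0.02 and 0.28.

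Complex IV was the least reduced of the larger groups, with median log2 differences of -0.78, -0.99 and -0.45. The medians of all genes tested were -0.95, -0.78 and -0.75. Sdhd, a membrane anchor of complex II, was at 40.9, 48.0 and 57.2 CPM in neutrophil-like cells against 33.8, 38.4 and 38.5 CPM. Ndufaf7, a methyltransferase that acts on complex I during its assembly, was the single member at least 2-fold higher in all 3 libraries, a direction that 14% of all genes showed. Its level was 57.0, 44.6 and 43.8 CPM in neutrophil-like cells against 21.1, 21.2 and 14.2 CPM. Of the lymphocyte-like groups, NK-like cells were nearest, at 32.3, 34.2 and 34.4 CPM. The 2-fold excess was thus over the median of the 3 groups and not over NK-like cells. Monocyte-macrophage-like cells were also above the lymphocyte-like median for it, at 38.5, 37.1 and 37.2 CPM. Nonclassical monocyte-like cells of the 3-d library, at 47.5 CPM, were above the neutrophil-like cells of that library.

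By the median gene, other mitochondrial gene groups were also low in neutrophil-like cells, some by more than the nuclear respiratory genes and some by less. The mitochondrial coding genes had median log2 differences of -3.82, -3.85 and -3.12. Of these genes, 12 of 13 (92.3%) were at least 4-fold lower in all 3 libraries, against 17.8% of all genes. The proteins of the mitochondrial ribosome, which translate those transcripts, had medians of -2.46, -2.47 and -2.18, with 37 of 70 tested genes (52.9%) at least 4-fold lower. The genes of the tricarboxylic acid cycle and pyruvate dehydrogenase had medians of -1.99, -1.60 and -1.28. At least 4-fold lower were 4 of 15 (26.7%), which is nearer to the 17.8% of all genes. Carriers, exchangers and uncoupling proteins were nearer to the lymphocyte-like level, at -0.73, -1.26 and -0.35, as were the factors of mitochondrial transcription and DNA expression, at -0.97, -0.44 and -0.72. Summed rather than taken as a median, the mitochondrial ribosomal proteins differed by -0.66, -1.16 and -0.61, against -0.89, -1.16 and -0.68 for the members. Summed carriers, exchangers and uncoupling proteins were not low throughout, at 0.04, 0.13 and -0.19. Factors for complex assembly outside the members had medians of -1.32, -1.90 and -1.26, but summed differences of -0.08, 0.92 and 0.19. Cytosolic ribosomal proteins, outside the mitochondrion, were also low, with medians of -2.87, -3.20 and -2.59.

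A few members had a far higher level in 1 kind of cell than in the others, and these were mainly alternative forms of complex IV subunits. Cox6a2 encodes the form of subunit 6a known from heart and skeletal muscle. In dendritic-like cells it was at 531 CPM at 2 h and 168 CPM at 3 d, and in every other group of the 3 libraries it was at 8.66 CPM or less. At least 1 Cox6a2 UMI was seen in 17 of 65 dendritic-like cells at 2 h (26.2%, 95% interval 16.0 to 38.5) and in 21 of 113 at 3 d (18.6%, 11.9 to 27.0). In T-like cells of the same libraries the counts were 1 of 2475 and 2 of 1055 cells.

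The dendritic-like cluster matched plasmacytoid markers best but was mixed, and within it Cox6a2 followed Siglech, a lectin gene that marks plasmacytoid dendritic cells. The split by Siglech was chosen after the Cox6a2 values were seen. At 2 h, 17 of 18 cells with a Siglech UMI also had a Cox6a2 UMI (94.4%), and 0 of 47 cells without one did, which allows a share of up to 6.38% by a limit of 3 cells and 7.55% by the exact interval. At 3 d the counts were 21 of 27 (77.8%) and 0 of 86, which allows up to 3.49% by 3 cells and 4.2% by the exact interval. In the naive library, where only 22 dendritic-like cells were retained, they were 5 of 8 and 0 of 14. The cells with a Siglech UMI were not the deeper ones, with median totals of 1940.5 UMIs at 2 h and 15314 at 3 d, against 2604 and 18147 in the cells without one.

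**Figure D3:**
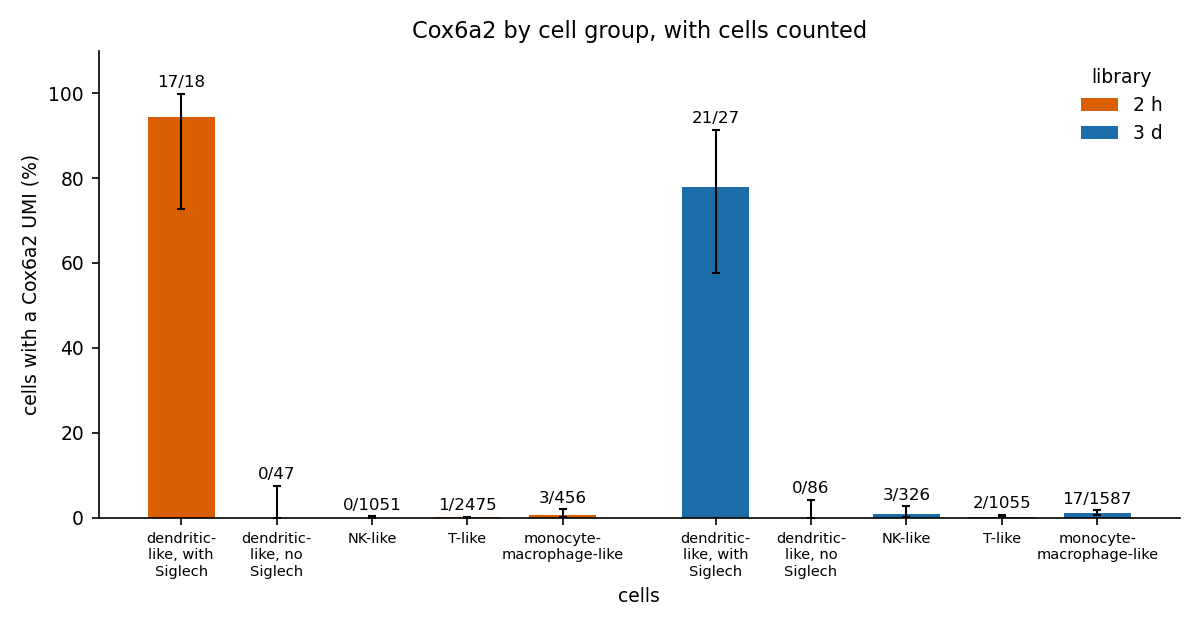
Percentage of cells with at least 1 Cox6a2 UMI in dendritic-like cells with and without a Siglech UMI and in 3 other cell groups, in the 2-h and 3-d libraries. Bars are shares, error bars 95% exact binomial intervals, and labels the cells counted. The share is 94.4% and 77.8% in cells with a Siglech UMI and 0 in the others of the dendritic-like group.

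Cox6b2, the form of subunit 6b known from testis, was highest in alveolar macrophage-like cells of the naive lung. It was at 49.4 CPM there, with a UMI in 53 of 102 cells (52.0%, 95% interval 41.8 to 62.0). Monocyte-macrophage-like cells were at 7.81 CPM in the naive library, 10.6 CPM at 2 h and 9.09 CPM at 3 d. Dendritic-like cells of the 3-d library were at 14.8 CPM, with a UMI in 17 of 113 cells. T-like cells were at 1.03, 0.976 and 1.16 CPM and neutrophil-like cells at 0, 0 and 0.277 CPM. Alveolar macrophage-like cells had a median of 20307 UMIs each, the deepest of the naive groups, so their share of cells with a UMI is not comparable with that of shallower cells, whereas the CPM is. After each cell was thinned to 500 UMIs the share was 2.94% in alveolar macrophage-like cells, which is the level of 3 cells in that group. It was 0 of 577 in T-like cells of that library. The T-like count allows up to 0.520% by 3 cells and 0.637% by the exact interval for 0 of 577. The same alveolar macrophage-like cells had the highest Cox5a, the gene of subunit 5a, at 391 CPM against 142 CPM in naive T-like cells.

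Cox4i2, the form of subunit 4 known from lung and induced by low oxygen, was detected mainly among endothelial-like cells. It was at 50.8 CPM in the naive and 32.6 CPM in the 3-d library. These levels rested on 14 UMIs in 4 of 92 cells and 21 UMIs in 3 of 297 cells. Ndufa4l2, a relative of Ndufa4 that is also induced by low oxygen, was at 32.6 and 14.0 CPM in the same groups, from 9 UMIs in 4 cells and 9 UMIs in 3 cells. With cell types called cell by cell from markers, the naive level of each was 9.62 CPM. Both transcripts were seen together in 3 of the 5 naive cells and 2 of the 4 3-d cells that had either. Pdgfrb, a marker of pericytes added after these values were seen, had a UMI in 2 of those 5 and 2 of those 4 cells, against 1 of 87 and 0 of 293 of the other endothelial-like cells. The endothelial marker Pecam1 had a UMI in 3 of those 5 and 2 of those 4 cells, against 40 of 87 and 86 of 293. At 2 h, where 49 endothelial-like cells fell below the 50-cell limit for a group, 4 cells had either transcript, 0 had both and 0 of the 4 had a Pdgfrb UMI. Pecam1 had a UMI in 2 of these 4 and in 9 of the other 45 cells.

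Other members with 1 high group rested on fewer counts or smaller gaps. Ndufs1, the largest core subunit of complex I, was at 180 CPM in 2-h basophil-like cells, a group of 68 cells, and at 18.8 CPM in those of the 3-d library, so the 2 libraries did not give the same picture. Cox7b, subunit 7b of complex IV, was at 310 and 325 CPM in dendritic-like cells at 2 h and 3 d, against 200 and 178 CPM in T-like cells. Ndufv2, a core subunit of complex I, was at 173 and 112 CPM in dendritic-like cells against 73.5 and 50.5 CPM in T-like cells. Sdhaf4, an assembly factor of complex II, was highest at 2 h in NK-like cells, at 42.5 CPM from 46 UMIs. It was at 18.7, 30.3 and 21.7 CPM in T-like cells and 1.34, 2.08 and 1.94 CPM in neutrophil-like cells. The naive neutrophil-like value is the level of 3 UMIs. Ndufaf6, an assembly factor of complex I, was at 22.4 CPM or less in every group.

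The partners of the restricted forms were present in every cell group. Cox6a1, the general form of subunit 6a, ranged from 67.3 CPM in 2-h basophil-like to 305 CPM in 3-d dendritic-like cells. Cox6b1 ranged from 101 CPM in 2-h basophil-like to 549 CPM in 2-h dendritic-like cells. Ndufa4, a subunit bound to complex IV, was lowest in neutrophil-like cells, at 45.0, 78.6 and 61.1 CPM against 224, 379 and 262 CPM in T-like cells. Cox7a2, the general form of subunit 7a, was at 133, 167 and 180 CPM in neutrophil-like and 166, 233 and 185 CPM in T-like cells. Its muscle form Cox7a1 was at 10.1 CPM in naive alveolar macrophage-like cells, from 20 UMIs in 15 of 102 cells. The only higher value, 11.2 CPM in 2-h basophil-like cells, rested on 1 UMI. Cox8b, a muscle form of subunit 8, had 1 UMI in the naive and 1 in the 3-d endothelial-like cells and none in any other group.

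Between the 2-h library and the naive library, the summed level of the members was higher at 2 h in each of the 5 groups compared. The log2 differences were 0.71 in B-like, 0.49 in T-like, 0.51 in NK-like, 0.22 in neutrophil-like and 0.50 in monocyte-macrophage-like cells. Divided by the UMIs of genes with under 5 kb of introns, the summed difference was -0.11 in NK-like and -0.32 in neutrophil-like cells, with a median over the 5 groups of 0.0142. Markers of other cells also differed between these libraries. The 8 neutrophil markers, all detected, summed to 244 CPM in naive and 2303 CPM in 2-h B-like cells, to 386 and 1832 CPM in NK-like cells and to 1081 and 6261 CPM in monocyte-macrophage-like cells. The 8 T-cell markers summed to 563 and 1562 CPM in NK-like cells, and the part of other cells' RNA in these differences was not tested.

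Among the 76 members tested in all 5 groups, 38 were higher in every group and 11 were lower in every group, where 20.4% and 38.6% of all 4563 genes tested in all 5 groups were. By the median over the 5 groups, 6 members were at least 2-fold higher (7.14% of all genes were) and 1 was at least 2-fold lower (22.5% of all genes). Cell group by cell group, at least 2-fold higher were 17 of 86 members in B-like cells (8.61% of all genes), 7 of 86 in T-like (7.15%), 11 of 86 in NK-like (8.27%), 2 of 76 in neutrophil-like (9.1%) and 10 of 84 in monocyte-macrophage-like cells (8.84%). At least 2-fold lower were 1, 2, 2, 2 and 1 members in that order, where 28.9%, 26.2%, 25.7%, 22.9% and 26.4% of all genes were. The median member stood at 0.35, against -0.23 for all genes. Among genes with under 5 kb of introns, members stood at 0.60 and other genes at 0.36. Of those other genes, 21.6% in B-like, 16.8% in T-like, 20.4% in NK-like, 17.7% in neutrophil-like and 19.3% in monocyte-macrophage-like cells were at least 2-fold higher. In B-like cells, other genes with under 5 kb of introns had a median of 0.44 and those with 100 kb or more a median of -2.14.

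The genes at least 2-fold higher at 2 h were Atp5g1, Ndufa7, Uqcrb, Atp5g2, Ndufb4 and Atp5e. Atp5g1 had a median log2 difference of 1.16, with 113 CPM in naive and 252 CPM in 2-h T-like cells. Uqcrb, a subunit of complex III, had one of 1.06, from 116 to 209 CPM in T-like cells. The 1 member on the other side was Ndufs4, a complex I subunit mutated in Leigh syndrome, with a median of -1.54. It was at 134 CPM in naive and 40.7 CPM in 2-h B-like cells, at 178 and 61.2 CPM in T-like cells and at 219 and 74.8 CPM in NK-like cells. In neutrophil-like cells it was low in both, at 28.9 and 21.8 CPM. Ndufs4 has 97756 bases of introns, which is long for a member, and whether this difference came from counted intronic reads was not tested.

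From 2 h to 3 d the cell groups did not move together. The summed log2 difference was -0.50 (95% interval -0.52 to -0.48) in B-like, -0.42 (-0.43 to -0.40) in T-like and -0.37 in NK-like cells. It was -0.13 in monocyte-macrophage-like (-0.04 with the macrophage-like clusters left out and nonclassical monocyte-like cells added) and 0.07 in neutrophil-like cells. The neutrophil-like difference was -0.43 per ribosomal protein UMI and -0.996 per UMI of short genes (under 5 kb of introns and transcripts under 1 kb). Dendritic-like cells differed by -0.29 and basophil-like cells by 0.24. These differences between cell groups were not tested, as there is 1 library at each time. Counted by member, 10 of 86 were at least 2-fold lower at 3 d in B-like cells (5.94% of all genes), 7 of 86 in T-like cells (6.14%) and 7 of 86 in NK-like cells (6.07%), against 1 of 76 in neutrophil-like cells (6.6%). Of other genes with under 5 kb of introns, 10.3%, 10.1%, 11.3% and 7.46% were at least 2-fold lower in these groups. At least 2-fold higher were 1, 1, 0 and 7 members in the same order of groups, where 13.6%, 10.9%, 14.2% and 13.4% of all genes were. In monocyte-macrophage-like cells 6 of 84 members were higher (16.9% of all genes) and 5 lower (8.49%).

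**Figure D4:**
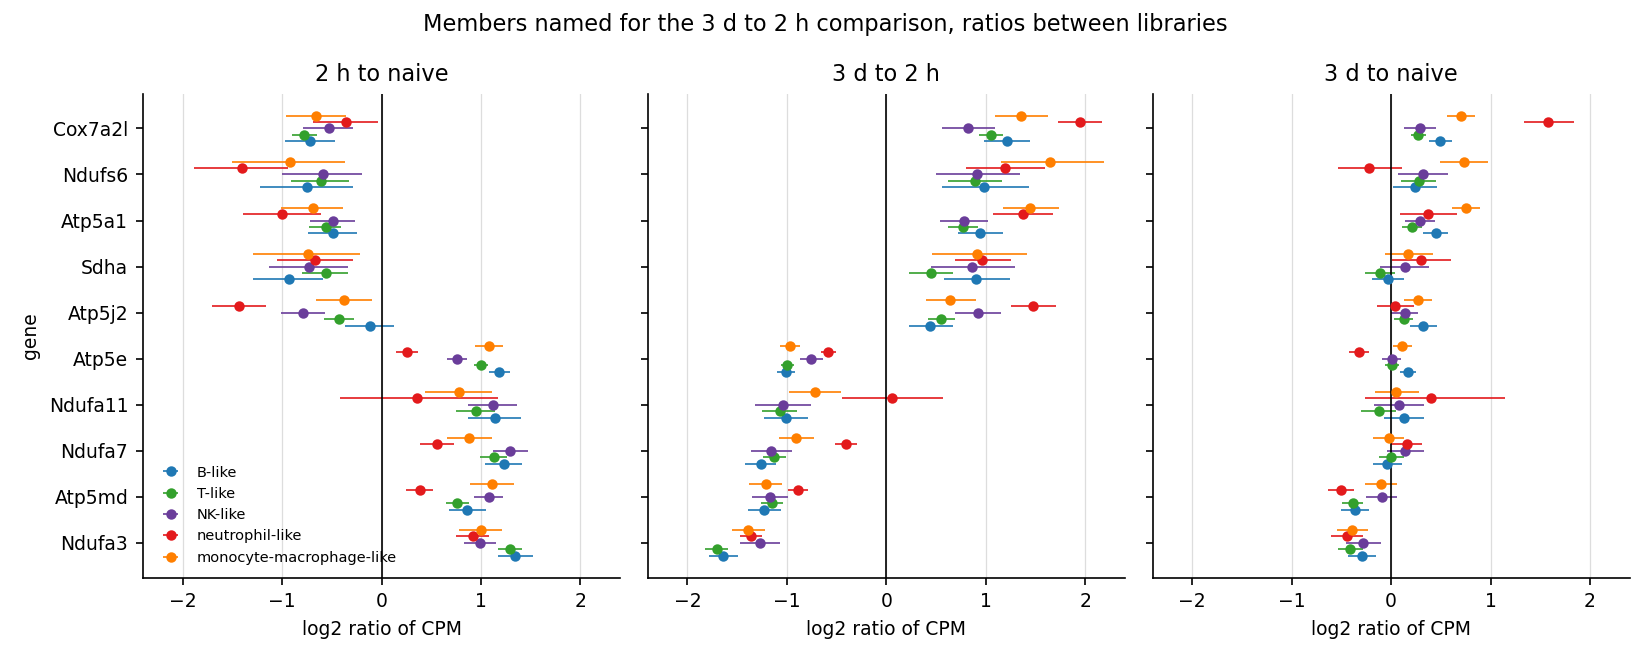
Log2 ratios of CPM between libraries for the 10 members named for the 3 d to 2 h comparison, in 5 cell groups. Points are ratios and bars 95% intervals of counting error. In the middle panel Ndufa3 lies lowest and Cox7a2l highest by their medians (-1.39 and 1.21), and the left panel shows the opposite order for most of the 10.

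Over the median of the 5 groups, 4 members were at least 2-fold lower at 3 d than at 2 h (4.51% of all genes) and 1 was at least 2-fold higher (7.56%). Ndufa3, an accessory subunit of complex I, had the lowest median, at -1.39. It was at 163, 400 and 123 CPM in T-like cells of the naive, 2-h and 3-d libraries and at 174, 328 and 128 CPM in neutrophil-like cells, so that the 2-h library was high and the other 2 were near each other. Atp5md had a median of -1.17 and the same form, at 216, 366 and 165 CPM in T-like cells. Ndufa7 (-1.12) and Ndufa11 (-1.01), both of complex I, were lower in the lymphocyte-like groups, while neutrophil-like cells differed by -0.40 and 0.05. Atp5e, the epsilon subunit of the ATP synthase, followed at -0.97, with 499, 999 and 502 CPM in T-like cells.

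On the other side, Cox7a2l, a factor for the assembly of respiratory supercomplexes, had a median of 1.21. It was at 367, 214 and 444 CPM in T-like cells and at 62.3, 48.5 and 187 CPM in neutrophil-like cells, lowest at 2 h in both. Ndufs6 of complex I (0.98), Atp5a1, the alpha subunit of complex V (0.94), Sdha, the flavoprotein of complex II (0.90), and Atp5j2 of complex V (0.64) had the same form. Sdha was at 100, 68.0 and 92.9 CPM in T-like cells, and Atp5a1 at 207, 140 and 239 CPM. Both comparisons use the 2-h library, so a gene that is high or low there enters both with opposite signs.

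The median of the members from 2 h to 3 d was -0.22, against 0.23 for all genes. Among genes with under 5 kb of introns, members stood at -0.32 and other genes at 0.0155, or at -0.14 where transcripts were also under 1 kb. In B-like cells other genes with transcripts under 1 kb had a median of -0.34 and those of 2.5 kb or more one of 0.41, beside -0.56 and -0.30 for members of the same lengths. In neutrophil-like cells the order by length was the opposite, with other genes at 0.41 and 0.21. The 2-h library was the shallowest per cell, at 878 UMIs. How far depth, transcript length or the library kit, which is not stated for each library, made these differences was not tested.

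Between the 3-d and naive libraries the summed level differed less, by 0.21 in B-like, 0.08 in T-like, 0.14 in NK-like, 0.29 in neutrophil-like and 0.36 in monocyte-macrophage-like cells, and by 0.08 in endothelial-like cells. No member was at least 2-fold higher by its median over the 5 groups (2.98% of all genes were) and 1, again Ndufs4 at -1.22, was at least 2-fold lower (13.9%). In single cell groups, 4 of 76 members were at least 2-fold higher in neutrophil-like cells (7.6% of all genes) and none in B-like (3.79%), T-like (2.8%), NK-like (4.4%) or monocyte-macrophage-like cells (6.2%). At least 2-fold lower were 2 members each in B-like (18.1% of all genes), T-like (16.7%) and NK-like cells (15.5%), and none in neutrophil-like (15.5%) or monocyte-macrophage-like cells (16.7%). The highest medians belonged to Ndufs5 (0.55), Cox7a2l (0.49), Atp5f1 (0.49), Atp5g1 (0.45) and Ndufb5 (0.44), and the lowest after Ndufs4 to Atp5k (-0.40), Ndufa3 (-0.39), Atp5md (-0.36) and Ndufv2 (-0.18). Of 76 members, 42 were higher in all 5 groups and 4 lower, against 28.3% and 27.8% of all genes. The median member stood at 0.23. Among genes with under 5 kb of introns, members stood at 0.24 and other genes at 0.37, whereas among those with 20 to 100 kb members of B-like cells stood at 0.0043 and other genes at -0.44. Divided by the UMIs of genes with under 5 kb of introns, the summed difference turned to -0.31 as the median over the groups.

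Other mitochondrial gene groups did not share one course. The tricarboxylic acid cycle and pyruvate dehydrogenase genes, with 10 tested, had a median of -0.42 from naive to 2 h and of 0.69 from 2 h to 3 d. Their summed log2 difference from 2 h to 3 d was 0.54 in B-like, 0.35 in T-like and 0.83 in neutrophil-like cells. The regulators and factors of mitochondrial DNA expression, with 7 tested, had medians of -0.57 and 0.54. The median difference of all genes tested, given above, was also negative from naive to 2 h and positive from 2 h to 3 d. Mitochondrial ribosomal proteins, with 28 tested, had the form of the members, at 0.45 and -0.28. The mitochondrial coding genes had a summed difference from 2 h to 3 d of 0.28 in B-like, 0.29 in T-like, 0.13 in NK-like, 0.94 in neutrophil-like and 0.90 in monocyte-macrophage-like cells, so that the ratio of nuclear to mitochondrial UMIs was lower at 3 d than at 2 h in all 5 groups.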

How the data were processed

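The deposited files hold whole-number UMI counts per gene and cell, which the authors made with Cell Ranger 6 and Seurat 4 per the submitters' notes. The file headers name Cell Ranger 7.1.0 for the naive and 6.0.0 for the transplant libraries, on mm10. The labels give 5′ v1.1 and 3′ v1.1 kits and the methods a 3′ kit, without saying which library used which. The 277 antibody features were not used here.

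Cells with 200 to 6000 genes, under 10% mitochondrial and under 25000 UMIs were kept. All cells were clustered together (Seurat 5.3.0, SCTransform with mitochondrial share and depth regressed out, 30 components, resolution 0.8) and clusters were named from marker lists. Doublets were scored with Scrublet in scanpy 1.11.5 (40, 403 and 277 called in the naive, 2-h and 3-d libraries) and kept. Counts were summed per library and cell group. Between libraries, a gene was tested in a cell group where its mean was at least 10 CPM over all libraries, with a UMI in each. Between neutrophil-like and lymphocyte-like cells, the mean was taken over both sides and all libraries, with neither side empty in any library. A gene was called at a 2-fold ratio, or at 4-fold where stated. Poisson, Clopper-Pearson and conditional binomial intervals cover counting error only. On counts simulated with Poisson error and no spread between cells, 95.4 to 96.1% of intervals held the true value. The intervals assume such error, so this checked the calculation only. Classical monocyte-like and macrophage-like clusters were joined, as the design had it.

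Named members were the 10 with most UMIs, the 5 highest and 5 lowest medians of each library comparison among genes of at least 50 CPM, the 10 most restricted to 1 cell group, the paralogs of the restricted forms, and those without UMIs. The rule for the members uses names only, but the rule and the lists were chosen with earlier results of these data known. The short-gene denominator and the monocyte-like cells without macrophage-like clusters were chosen after seeing the data. No paired or replicate test was possible with 1 library per condition.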

Additional observations from a re-analysis of the deposited data

Results flagged for a closer look

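The summed nuclear genes moved in opposite ways between cell groups from 2 h to 3 d. The log2 difference was -0.50 in B-like, -0.42 in T-like, -0.37 in NK-like, -0.13 in monocyte-macrophage-like and -0.29 in dendritic-like cells, but 0.0689 in neutrophil-like and 0.24 in basophil-like cells. The neutrophil-like value turned to -0.43 per ribosomal protein UMI and -0.996 per UMI of short genes, so its direction depends on the denominator. Each value rests on 1 library per time, and the difference between the groups was not tested. Ndufb1-ps, which the rule left out because of its ending and which the annotation lists as a bidirectional promoter lncRNA, carried a signal of the size of a member, at 222 CPM in naive, 322 CPM in 2-h and 154 CPM in 3-d T-like cells.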

How the results depend on the processing

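No paired analysis was possible because there is 1 library per condition and the results come from no test. The median log2 deficit of neutrophil-like cells (-0.89) was -1.04 without the cell filter, -1.38 with ribosomal protein, mitochondrial and immunoglobulin genes left out of the total, -0.64 per UMI of genes with under 5 kb of introns and -1.04 per UMI of short genes, and reversed to 1.97 per ribosomal protein UMI. The nuclear to mitochondrial log2 difference between these groups (2.30) was 2.13 without the filter, 2.55 without doublets and 2.54 after thinning. The 2-h to naive median (0.50) was 0.30 per ribosomal protein UMI, 0.0142 per UMI of genes with under 5 kb of introns and 0.26 per short-gene UMI. The 3-d to 2-h median (-0.37) was -0.20 per UMI of genes with under 5 kb of introns.

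The 3-d to naive median (0.21) was 0.32 with ribosomal protein, mitochondrial and immunoglobulin genes left out and reversed under the 3 other denominators. Per ribosomal protein UMI it was -0.15, with -0.24 in B-like, -0.15 in T-like, -0.12 in NK-like and -0.32 in neutrophil-like cells. Per UMI of genes with under 5 kb of introns it was -0.31, with -0.32, -0.31, -0.31 and -0.17, and the 2-h to naive difference reversed to -0.11 in NK-like and -0.32 in neutrophil-like cells. Per short-gene UMI it was -0.0493, with -0.11, -0.0493, -0.0142 and -0.12. In monocyte-macrophage-like cells the 3-d to naive difference (0.36) did not reverse under any alternative that gave a value, the lowest being 0.00119. The 3-d to 2-h difference of neutrophil-like cells reversed to -0.43 per ribosomal protein UMI and -0.996 per short-gene UMI, and the 3-d to naive difference of T-like cells to -0.0142 without the cell filter.

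By count of members, the 2-h to naive comparison gave 10 higher with those gene classes left out, 2 higher and 0 lower at a minimum of 50 CPM, 2 lower without a minimum, and 27 higher and 4 lower at 1.5-fold. The 3-d to 2-h comparison gave 2 higher with those classes left out and 5 higher and 18 lower at 1.5-fold. The 3-d to naive comparison gave 2 lower without a minimum and 0 at 50 CPM. The cause of these shifts was not tested. The other 72 alternative values of the results that answer a comparison moved by less than 0.1 on the log2 scale for medians and by no more than 1.5 times for counts. For single cell groups and members, 124 alternative values stayed within counting error, 135 moved beyond it in the same direction and 17 reversed, as given above.

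Depth limits the 2-h library most, at a median of 878 UMIs per cell. A single library per condition carries no spread between animals, so no interval here covers it. Cell names were rebuilt from markers, and the naive library differs in software version and in intron-rich genes. Whether the libraries shared a kit is not stated, and the part of the kit in any library comparison was not tested.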

Other observations

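A cluster of the 3-d library, with 149 cells led by Tnf, Ccl3, Ccrl2 and Cxcl2, was left unnamed. Its nearest marker list was that of neutrophils, at a median log2 of 0.72, under the limit of 1 for a name. These cells were therefore not among the neutrophil-like cells. The cluster held 1.73% of its UMIs in the nuclear oxidative phosphorylation genes (95% interval 1.70 to 1.76) and 1.80 nuclear UMIs per mitochondrial UMI. A second unnamed cluster, led by the heat shock genes Hspa1a and Hspa1b, held 1.43% in 308 cells at 2 h and 1.31% in 86 cells at 3 d, with 0.430 and 0.365 nuclear UMIs per mitochondrial UMI.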
